A study of Mus musculus with 12 samples.

Results

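Tulp4, Elf2, Zfp609, Hipk3, Slc8a1, Rtn4, Anks1b, Klhl2, Unc79 and Gigyf2 are genes known to give abundant circular RNAs in brain, and they were taken by name from the table of 21492 genes, in which all 10 were present. They were chosen with earlier results of these data known. The tissue was the striatum, taken from C57BL/6J males at postnatal day 70. Synaptosomes are pinched-off nerve endings with attached postsynaptic membrane, and polysomes are transcripts that carry several ribosomes. Total synaptosomal RNA (input) and RNA of synaptosomal polysomes were sequenced from wild-type (WT) mice and from mice carrying a Shank3 transgene (TG), with 3 libraries in each of the 4 groups. Strain, sex, age and tissue were the same in every group. The sources used here do not give the promoter of the transgene, the number of transgenic lines or the number of animals behind a library, so the p-values below measure the spread between libraries, which may be technical.

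A circular RNA forms by back-splicing, in which the end of an exon is joined to the start of the same exon or of an exon upstream, so that the product has neither cap nor poly(A) tail. Long flanking introns that can pair with each other favour this reaction. Circular RNAs resist exonucleases, and they are abundant in the brain and at synapses. The library kit, for stranded total RNA, does not select polyadenylated molecules, so reads of circular molecules can enter them. The deposited values are sums per gene: they take in linear transcripts and possibly circular ones, the back-splice junctions were not counted, and linear and circular RNA of a gene cannot be told apart here.

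For Hipk3, Zfp609 and Slc8a1 the circle known from other work consists of the second exon alone, and the ends that back-splicing joins are shown for Hipk3 and Slc8a1 because no value in the table is specific to them. The sequences are those of GENCODE M21 transcripts on GRCm38, all on the minus strand, written 5′ to 3′ with 24 bases from each end of exon 2. Capitals mark the 2 bases next to the back-splice. The last bases are coding in both genes, while the first bases lie in the 5′ UTR of Slc8a1 and, in Hipk3, hold the start codon after their 2 capitals.
Hipk3 exon 2, first bases, chr2:104471824-104471847: GTatggcctcacaagtcttggtct
Hipk3 exon 2, last bases, chr2:104470749-104470772: gtatcttcaatctcgctactacAG
Slc8a1 exon 2, first bases, chr17:81649615-81649638: GTtggagcagttggaagtcttatt
Slc8a1 exon 2, last bases, chr17:81647809-81647832: cgaattccagaacgatgaaataGT
In a back-spliced molecule the last bases of each pair run directly into the first bases. Exon 2 of Hipk3 is 1099 bp long and makes up 30.1% of the transcript with the longest coding sequence, with 1097 bp of it coding. Exon 2 of Slc8a1 is 1830 bp long and makes up 57.55% of that gene's transcript, and exon 2 of Zfp609 is 874 bp long and makes up 11.2%. The introns on either side are long in all 3 genes, at 22100 and 24113 bp in Hipk3, 31970 and 63420 bp in Zfp609, and 88670 and 202215 bp in Slc8a1.

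The 10 genes share features of structure. Since long flanking introns favour back-splicing, such features may follow from the choice of known host genes. Their median gene span was 129490 bp, against 25218 bp for the 15043 protein-coding genes measured, and the span of every one of the 10 was above that median. Their median longest intron was 39428 bp against 7334 bp, and again all 10 were above. The longest internal exon had a median of 1160 bp against 209 bp, with 9 of 10 above and Klhl2, at 198 bp, below. Exonic length, the union of all annotated exons of a gene, had a median of 11890 bp against 4437 bp and ran from 6991 bp in Rtn4 to 18807 bp in Slc8a1, between percentiles 76.3 and 99.1 of protein-coding genes. Because length moved with the main result, it is given again beside it.

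On GRCm38 the genes lie on 9 chromosomes. Tulp4 lies on chromosome 17 at 6106437 to 6251128, Elf2 on chromosome 3 at 51252720 to 51340663, and Zfp609 on chromosome 9 at 65692391 to 65827564. Hipk3 lies on chromosome 2 at 104426481 to 104494446, Slc8a1 on chromosome 17 at 81373105 to 81738377, and Rtn4 on chromosome 11 at 29692947 to 29744331. Anks1b lies on chromosome 10 at 89873509 to 90973300, Klhl2 on chromosome 8 at 64739675 to 64850017, Unc79 on chromosome 12 at 102948859 to 103184065, and Gigyf2 on chromosome 1 at 87326998 to 87450796. Of the 31-base stretches in Tulp4 transcripts, 20.5% also occur in other genes, so the values of Tulp4 are less certain than those of the other 9, which share at most 0.72%. Exons of Rtn4 overlap those of Eml6 on the opposite strand over 1284 bp, but Eml6 reached at most 1640 normalized counts in any library where Rtn4 had at least 46811. Overlaps of Gigyf2 with Kcnj13 (623 bp) and of Elf2 with 4930577N17Rik (371 bp) involve partners that reached at most 218 and 15.2 normalized counts. The sources used here do not say whether the quantification used strand.

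Values are the authors' normalized estimated counts per gene. Estimated depth was 62.4 to 102 M reads per library. Shank3, the gene on the transgene, had 5456 to 17500 normalized counts in TG input and 2121 to 5858 in WT input, and 5012 to 12626 in TG polysome against 1501 to 5848 in WT polysome, so the ranges overlapped in both fractions. It was higher in TG in 3 of 3 same-numbered pairs of each fraction, by 2.41 to 4.204 times in input and by 2.10 to 3.41 times in polysome. Mitochondrial ribosomal RNA took 39.1% to 46.8% of input signal and 23.1% to 34.0% of polysome signal. Libraries carrying replicate number 2 stood apart in all 4 groups. Medium spiny neurons are the main projection neurons of the striatum, and the summed level of 10 of their markers was 406830 to 501720 normalized counts in these 4 libraries and 194490 to 281110 in the other 8, and that of 7 markers of cortical excitatory neurons was 28817 to 50305 against 59133 to 129780. No marker of either list was at 0 in any library. In bulk RNA, fewer cells of a type and less RNA per cell cannot be told apart.

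Levels of the genes can be compared with each other only per length, and their order depends on the length used. Exonic length is 18807 bp in Slc8a1 and 6991 bp in Rtn4. The transcripts with the longest coding sequence have 3180 bp in Slc8a1 and 4618 bp in Rtn4. Rtn4 was the highest in all 4 groups, with 7393 ± 417 normalized counts per kb of exonic length in WT input (mean ± SD, n = 3) and 10885 ± 730 in WT polysome. Slc8a1 followed in WT input with 2247 ± 785 per kb, and the next were Anks1b with 1126 ± 293, Klhl2 with 1095 ± 183, Hipk3 with 990.1 ± 32.9 and Tulp4 with 916 ± 135. These last 4 lay within their spread of each other. Unc79 had 527 ± 174 per kb. Elf2 with 269 ± 46.6 and Gigyf2 with 229 ± 47.1 per kb did not differ beyond their spread, and Zfp609 was the lowest with 154 ± 71.1. In WT polysome Unc79 stood at 183 ± 9.10 per kb, Elf2 at 103 ± 8.47, Gigyf2 at 115 ± 13.3 and Zfp609 at 69.8, so that Gigyf2 and Elf2 changed places within their spread. In TG polysome the mean of Anks1b, 1236 ± 480 per kb, and that of Slc8a1, 1231 ± 330, were nearly equal.

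**Figure D1:**
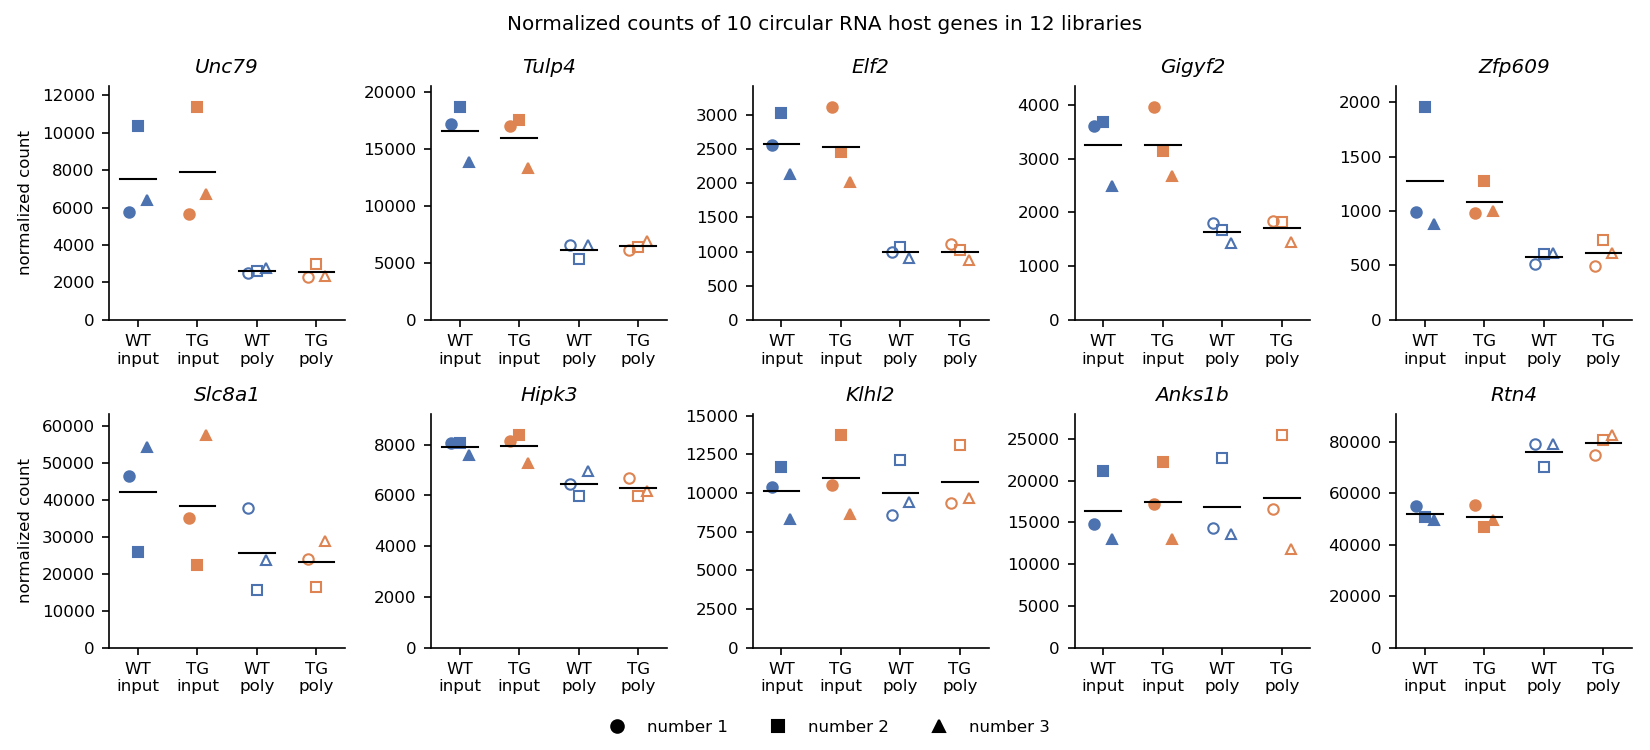
Normalized counts of the 10 genes in the 12 libraries (linear axis, scaled for each gene), by group, with 1 point per library. The 6 input points of Unc79, Tulp4, Elf2, Gigyf2, Zfp609 and Hipk3 lie above the 6 polysome points of the same gene, and those of Rtn4 lie below.

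The first question was how the normalized levels of these genes differ between synaptosomal RNA and its polysomes. Because the values are normalized, a difference is relative to the other genes of the table. The share of a gene's transcripts that carry ribosomes was not measured. Most of the 10 genes were lower on polysomes in this relative sense. Over both genotypes, 6 of 10 were lower in polysome RNA (Unc79, Tulp4, Elf2, Gigyf2, Zfp609 and Hipk3), 1 was higher (Rtn4) and 3 did not pass the test (Slc8a1, Klhl2 and Anks1b), with limma at an adjusted p under 0.05. Among the 16962 genes tested, 35.6% passed in the same comparison, 18.4% lower and 17.1% higher. The median log2 difference, polysome minus input, was -0.82 over the 10 genes and 0.04 over all genes tested. In WT alone 5 were lower and 1 was higher, against 8.59% and 5.36% of all genes. The same 5 and the same 1 passed in TG, against 9.86% and 8.19%, and Hipk3 passed over both genotypes but in neither alone. A replicate block paired each polysome library with the input library of the same genotype and number. With this block 7 of the 10 passed in WT, 7 in TG and 8 over both, against 29.8%, 33.2% and 49.5% of all genes. All 10 genes passed the filter on low values in every comparison. For 6 genes every polysome library was below every input library of both genotypes, and for 1 gene every one was above, as for 12.1% and 10.2% of all genes. The same 6 and 1 did not overlap within WT, against 18.5% lower and 17.7% higher among all genes, or within TG, against 18% and 17.6%.

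**Figure D2:**
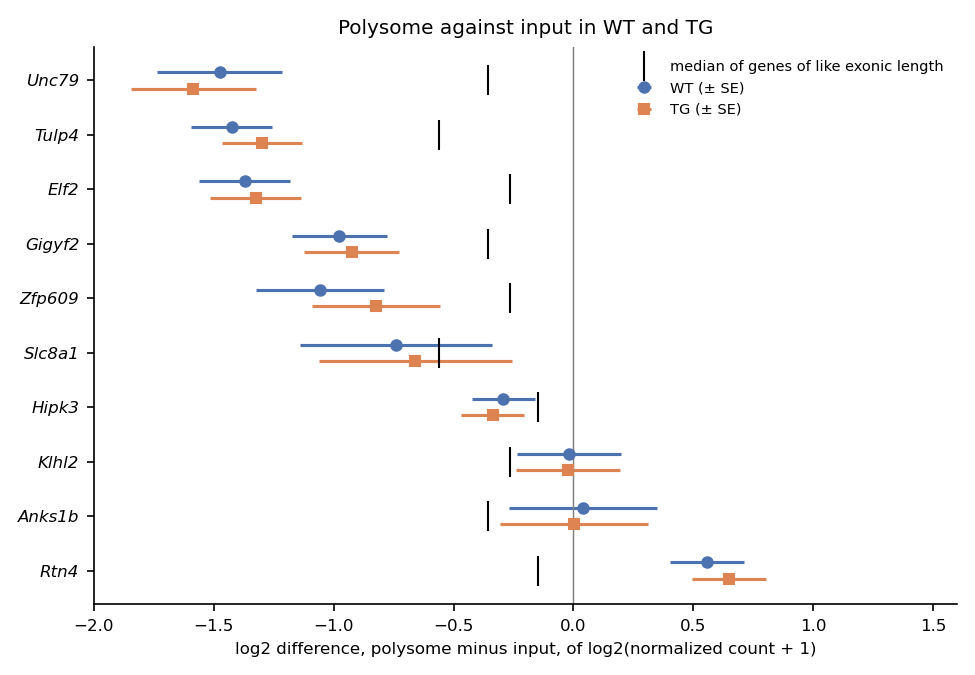
Log2 difference of polysome from input for each gene, in WT and in TG, with its standard error (limma, 12 libraries); the black bar is the median of all genes of the same class of exonic length. Unc79, Tulp4, Elf2, Gigyf2 and Zfp609 lie well below 0 and below the bar in both genotypes, and Rtn4 lies above 0 in both.

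Elf2, Zfp609 and Tulp4 encode proteins that act on the expression or turnover of others. Elf2 is a transcription factor of the ETS family. It had 2560.3, 3027 and 2137 normalized counts in the WT input libraries of numbers 1, 2 and 3 and 999, 1061.5 and 901 in WT polysome, and it had 3114, 2454 and 2017 in TG input and 1103, 1021.5 and 869 in TG polysome. Every polysome library was below every input library, and in the 6 pairs of the same genotype and number the polysome value was 0.351 to 0.431 times the input value. Over both genotypes the log2 difference was -1.35 ± 0.13 (SE), and it passed with limma (adjusted p = 3.79e-05).

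Tulp4, a tubby-like protein with a SOCS box of the kind that recruits ubiquitin ligases, had 17127, 18636 and 13867 normalized counts in WT input and 6524, 5313 and 6587 in WT polysome. In TG it had 17014, 17532 and 13311 in input and 6082, 6358 and 6894 in polysome. The groups did not overlap, and the log2 difference was -1.36 ± 0.12 with an adjusted p of 1.52e-05 (limma). Zfp609, a zinc finger protein, was the most variable of these genes in WT input, where number 2 stood well above the others with 1953 against 995 and 883 normalized counts. WT polysome held 511, 603 and 618, TG input 983, 1279 and 996, and TG polysome 498, 734 and 618. Polysome values were below all input values in both genotypes, with a log2 difference of -0.94 ± 0.19 and an adjusted p of 0.00236 (limma). Within a single genotype the call of Zfp609 depended on single libraries. In WT its adjusted p was 0.0228, and it rose to 0.0533 to 0.0646 when WT input 2 or any of the 3 WT polysome libraries was left out. In TG its adjusted p was 0.0492, and the call was lost in 9 of the 12 fits that each left out 1 library, all but those without WT input 2, WT input 3 or TG polysome 2, with 0.172 without TG polysome 1 as the highest. In TG it was also lost with no filter on low values (0.0575) and with no variance trend (0.0732).

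Gigyf2 encodes a GYF-domain protein that works with a cap-binding protein to repress translation. It had 3600, 3684.5 and 2484 normalized counts in WT input and 1808, 1670.4 and 1434 in WT polysome. In TG it had 3956.5, 3138 and 2685 in input and 1846, 1812 and 1453 in polysome. All polysome values lay below all input values, at 0.453 to 0.578 times the input value of the same genotype and number. The log2 difference was -0.95 ± 0.14 with an adjusted p of 0.000414 (limma).

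Unc79 and Slc8a1 encode membrane proteins of ion transport. Unc79 is a subunit of the complex of the NALCN sodium leak channel and had the largest fall of the 10. WT input held 5785, 10359 and 6423 normalized counts and WT polysome 2499.5, 2593 and 2756, and TG input held 5679.6, 11362 and 6721 and TG polysome 2269, 2999 and 2358. Input was highest in number 2 in both genotypes, while the polysome libraries of WT differed little. The log2 difference was -1.53 ± 0.19 with an adjusted p of 0.000137 (limma), and polysome was 0.25 to 0.432 times input in the 6 pairs.

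Slc8a1, the sodium-calcium exchanger NCX1 of the plasma membrane, was lower on polysomes in each of the 6 pairs, but its groups overlapped. WT input had 46425, 25864 and 54477 normalized counts and WT polysome 37773, 15546 and 23835, while TG input had 35177, 22269 and 57673 and TG polysome 24126, 16523 and 28807. Number 2 was the lowest library in each of the 4 groups. The log2 difference was -0.70 ± 0.28, which did not pass the test (adjusted p = 0.0721, limma). With the block the same difference had a standard error of 0.13 and passed, with an adjusted p of 0.00186, and it passed in WT (0.0165) and in TG (0.0218) too. Without the block it passed when WT input 2, TG input 2 or WT polysome 1 was left out, with adjusted p between 0.0308 and 0.0346.

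Hipk3, a homeodomain-interacting protein kinase whose exon 2 ends are printed above, had the smallest fall of the 6 genes that were lower. It had 8052, 8067 and 7605 normalized counts in WT input and 6431, 5984.5 and 6973 in WT polysome, and 8152, 8377 and 7269.7 in TG input and 6676, 5966 and 6188 in TG polysome. The groups did not overlap in either genotype because the libraries of a group lay close together, with a coefficient of variation of 3.32% in WT input. The log2 difference was -0.32 ± 0.09 with an adjusted p of 0.0190 over both genotypes (limma), and it did not pass in WT (adjusted p = 0.154) or TG (0.0944) alone.

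Klhl2 and Anks1b were at nearly the same normalized level in both fractions. Klhl2 is a Kelch protein that binds actin and serves a cullin ubiquitin ligase, and it had 10411, 11654 and 8312.8 normalized counts in WT input and 8549.7, 12109 and 9404 in WT polysome. In TG it had 10483, 13750 and 8649.8 in input and 9369.6, 13116 and 9705 in polysome. Its log2 difference of -0.02 ± 0.15 did not pass (adjusted p = 0.937, limma), with a 95% interval from -0.35 to 0.31, or from -0.23 to 0.19 with the replicate block. Anks1b, a protein of the postsynaptic density that binds PSD-95, had 14799, 21131 and 13041 in WT input and 14318, 22751 and 13554 in WT polysome. TG input had 17172, 22253 and 12949 and TG polysome 16555, 25464 and 11758. The log2 difference was 0.02 ± 0.22 (adjusted p = 0.955, limma), with a 95% interval from -0.45 to 0.49. With the replicate block the interval of Anks1b was -0.17 to 0.21, and its 6 differences within pairs ran from -0.14 to 0.19. For both genes the libraries of 1 group differed by more than the fractions did.

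Rtn4 ran the other way. It encodes reticulon 4, a protein that shapes the endoplasmic reticulum and whose isoform Nogo-A limits axon growth. WT input had 54974, 50645 and 49432 normalized counts and WT polysome 79212, 70209 and 78867, and TG input had 55468, 46811 and 49504 and TG polysome 74735, 80619 and 82543. Every polysome library was above every input library, by 1.35 to 1.72 times within pairs. The log2 difference was 0.60 ± 0.11 with an adjusted p of 0.00128 (limma). In WT alone the adjusted p was 0.0325, and it ranged from 0.0346 to 0.120 when 1 of the 12 libraries was left out. It was above 0.05, so that the call was lost, without any 1 of the 6 WT libraries and without TG polysome 1. In TG alone it was 0.0147, and the call was lost without TG input 2 (0.0591) and without TG polysome 3 (0.0541). The call was also lost when each genotype was fitted on its own 6 libraries, in WT (0.0794) and in TG (0.0622), and in WT when no filter on low values was used (0.0691).

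**Figure D3:**
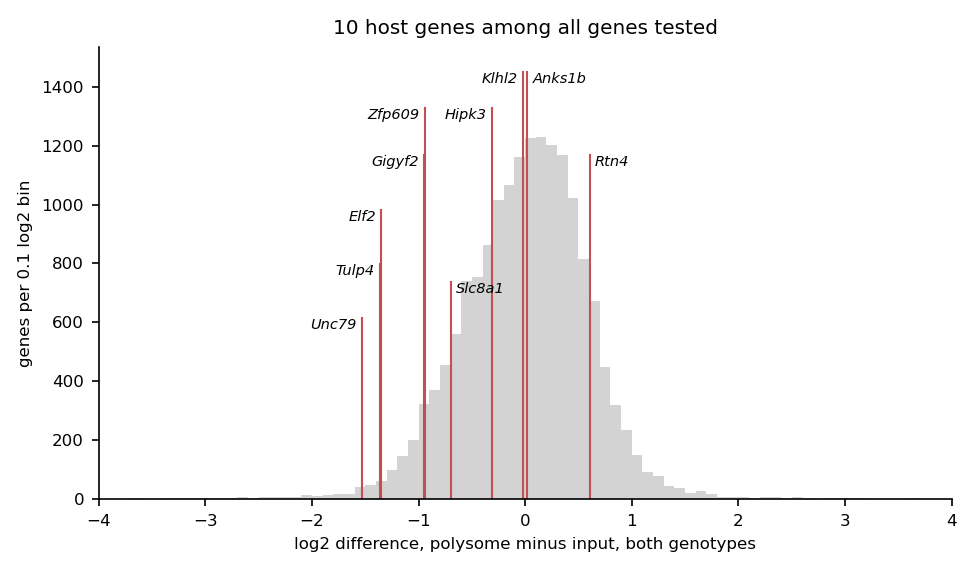
Distribution of the log2 difference, polysome minus input over both genotypes, of all 16962 genes tested (grey, genes per bin of 0.1), with a red line for each of the 10 genes. Unc79, Tulp4 and Elf2 stand in the lower tail, Klhl2 and Anks1b near the centre and Rtn4 above it.

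Set among all genes tested, Unc79 stood at percentile 1.13 of the log2 difference over both genotypes, Tulp4 at 1.56 and Elf2 at 1.64. Gigyf2 and Zfp609 followed at percentiles 5.31 and 5.50. Slc8a1 lay at 11.2, Hipk3 at 27.7, Klhl2 at 46.2, Anks1b at 48.8 and Rtn4 at 87.0. The genes ranged from the lower tail of the table to well above its median, so the 10 did not share 1 direction.

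Exonic length moved with this difference across the whole table. The median log2 difference fell from 0.36 in the 753 genes of up to 1 kb to -0.56 in the 416 genes over 15 kb, and the share of genes lower on polysomes was 57.2% in the latter class. The 10 genes are long, so each was set against its own class of length as a description. Unc79 stood at percentile 1.31 of the 1065 genes of 10 to 15 kb and Elf2 at 1.92 of the 1249 genes of 8 to 10 kb. Tulp4 was at percentile 6.25 of its class, Zfp609 at 8.65 and Gigyf2 at 11.2, so that these 5 lay under the first quartile of genes as long as themselves. Hipk3 at 37.2 and Slc8a1 at 37.5 lay between the quartiles, as did Klhl2 at 69.3. Anks1b at 76.9 and Rtn4 at 94.0 lay above the third quartile. With the trend on exonic length removed from every library before the fit, 5 of the 10 were lower and 1 was higher over both genotypes, against 14.8% and 15.4% of the 16951 genes. Hipk3 no longer passed (-0.09 ± 0.10, adjusted p = 0.515), and Slc8a1 was at -0.13 ± 0.29 (adjusted p = 0.772, limma). Unc79 was then at -1.07 ± 0.18, Elf2 at -1.06 ± 0.15, Tulp4 at -0.81 ± 0.14, Zfp609 at -0.70 ± 0.20 and Gigyf2 at -0.49 ± 0.17, with adjusted p from 0.000693 to 0.0451, and Rtn4 at 0.78 ± 0.10 (adjusted p = 0.000395). Within WT, and likewise within TG, the trend removed left Tulp4, Elf2 and Unc79 lower and Rtn4 higher, while Zfp609 and Gigyf2 did not pass. Among all genes 5.12% were then lower and 3.49% higher in WT, and 6.46% and 6.37% in TG. Why length moved with the fraction was not tested.

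**Figure D4:**
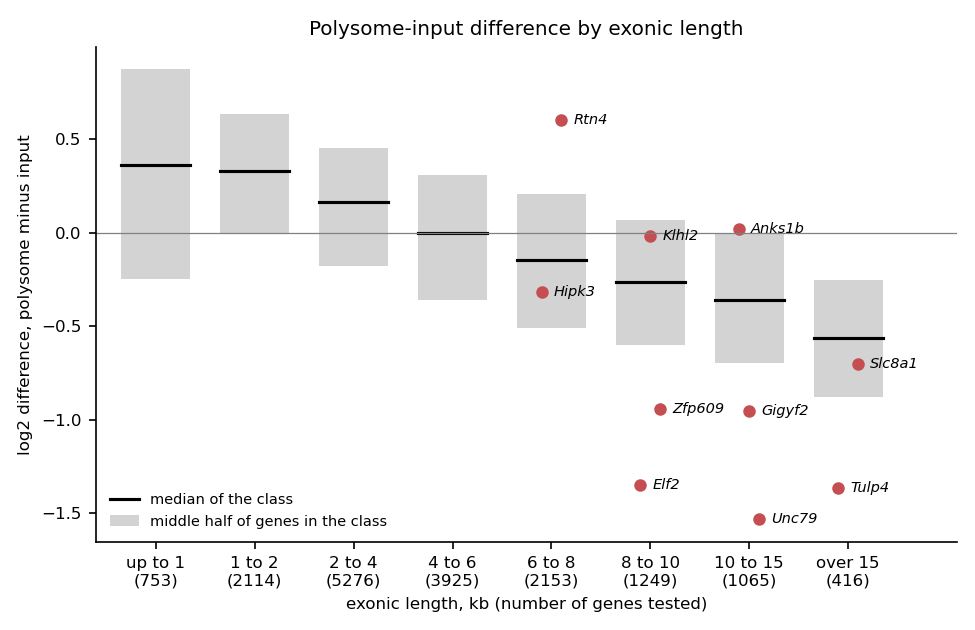
Log2 difference of polysome from input over both genotypes in 8 classes of exonic length drawn side by side, with the median and quartiles of each class. A labelled point for each of the 10 genes stands in its class, not at its own length. The medians fall from 0.36 to -0.56 with length, and Unc79, Tulp4, Elf2, Zfp609 and Gigyf2 lie below the quartiles of their class.

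Other RNAs moved with the fraction as well. The summed level of 6 nuclear long noncoding RNAs was 5787 to 17659 normalized counts in the 6 input libraries and 2586 to 5414 in the 6 polysome libraries, and 2 of the 6 were lower on polysomes by the test over both genotypes and none was higher, against the 18.4% and 17.1% of all genes given above. The summed level of 5 astrocyte markers was 69953 to 77812 in input and 35558 to 52134 in polysome. Of these 5, 2 were lower by the test, and 2 others had differences above 0 that did not pass. None of these 11 genes was at 0 in any library. Markers of other cells went both ways, with 2 of 10 medium spiny neuron, 2 of 5 microglial and 1 of 5 endothelial markers higher on polysomes, 1 of 7 cortical excitatory markers lower, 1 of 5 oligodendrocyte markers higher and 1 lower, and none of 5 choroid and ependymal markers past the test. With the replicate block, under which 24.6% of all genes were lower and 24.8% higher, 4 of the 6 nuclear RNAs were lower and none was higher, and of the astrocyte markers 2 were lower and 1 was higher. Under the block 6 medium spiny neuron markers were higher and 2 lower, and 1 cortical excitatory marker was higher and 3 were lower. Of the oligodendrocyte markers 1 was then higher and 2 were lower, of the microglial markers 2 and 1, and of the endothelial markers 1 and 1. Of the choroid and ependymal markers 1 was higher and none was lower. The part of nuclear RNA and of other cell types in the values of the 10 genes was not tested.

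Replicate number moved with the levels of 5 of the genes in every group. The share of all genes that did so was not counted. Over all genes tested, deviations of same-numbered libraries correlated at 0.24 to 0.55 in 18 pairs, so this need not be particular to the 10 genes. Anks1b and Klhl2 were highest in number 2 in 4 of 4 groups, as the markers of medium spiny neurons were, and Slc8a1 was lowest in number 2 in 4 of 4 groups, as the markers of cortical excitatory neurons were. In WT input, Slc8a1 had 25864 normalized counts in number 2 against 46425 and 54477, while Anks1b had 21131 against 14799 and 13041. Zfp609 and Unc79 were highest in number 2 in 3 of 4 groups, whereas Elf2 and Gigyf2, and Anks1b too, were lowest in number 3 in 4 of 4 groups. With the replicate block, 8 of the 10 genes passed in polysome against input over both genotypes with all libraries. Without number 2, 7 passed, and the shares of all genes were 49.5% and 36.1%. The call lost was that of Hipk3, at -0.24 ± 0.12 (adjusted p = 0.154, limma). In WT alone 7 passed with all libraries and 3 without number 2, against 29.8% and 2.25% of all genes. In TG alone 7 and 5 passed, against 33.2% and 7.92%. What a replicate number stands for is not stated in the labels, and the part of cell composition in these levels was not tested.

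**Figure D5:**
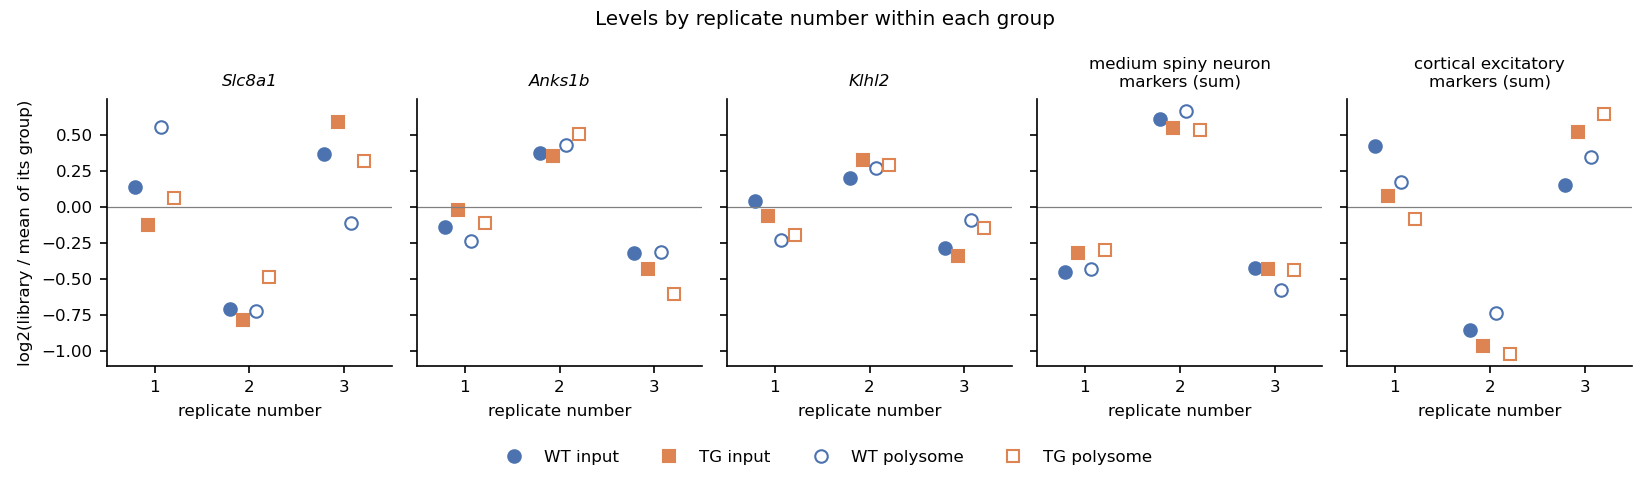
Log2 of each library's value over the mean of its group, for Slc8a1, Anks1b, Klhl2 and the summed markers of medium spiny neurons and of cortical excitatory neurons, by replicate number; the numbers are labels with no order. Number 2 is the lowest point of every group for Slc8a1 and the highest of every group for Anks1b and Klhl2.

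The second question was whether the Shank3 transgene changed the levels of these genes. None of the 10 passed in input or in polysome RNA (limma, adjusted p = 1.00 for each), and 0% of all genes tested passed in either. Shank3 itself was thus not called, though it was 2.10 to 4.204 times higher in TG in the same-numbered pairs. The lack of calls therefore does not show that levels were equal between genotypes. At an unadjusted p under 0.05, 80 of 16341 genes differed in input and 53 of 16312 in polysome, and none of the 10 was among them. TG and WT ranges overlapped for all 10 genes in both fractions, while 1.23% of genes lay fully higher and 1.39% fully lower in TG input, and 1.37% and 0.999% in TG polysome. The TG minus WT log2 difference in input ran from -0.18 ± 0.39 for Slc8a1 to 0.10 ± 0.21 for Klhl2. In polysome RNA it ran from -0.10 ± 0.34 for Slc8a1 to 0.10 ± 0.21 for Klhl2. The precision differed between genes. For Hipk3 in input the difference was 0.0024 with a 95% interval from -0.31 to 0.31, whereas for Slc8a1 the interval ran from -1.07 to 0.72. With the replicate block these intervals were -0.21 to 0.21 for Hipk3 and -0.45 to 0.09 for Slc8a1, whose 3 differences within pairs ran from -0.40 to 0.08. For Rtn4 the interval was -0.39 to 0.32 in input and -0.37 to 0.49 in polysome. Klhl2 was higher in TG in 3 of 3 same-numbered pairs in both fractions, by 0.0099 to 0.24 in input and 0.05 to 0.13 in polysome on the log2 scale, and it did not pass in either. Tulp4 was lower in TG in 3 of 3 pairs in input, at -0.09 to -0.0096, and Gigyf2 was higher in 3 of 3 in polysome, by 0.02 to 0.12, and neither passed. The share of all genes with 1 sign in 3 of 3 pairs was not counted. These signs are therefore a description and show no genotype difference.

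The third question was whether the ratio of polysome to input level differed with genotype. It was not shown to differ for any of the 10 genes, and 0% of the 16962 genes passed (94 at an unadjusted p under 0.05, none of the 10 among them). The TG minus WT difference of the log2 ratios ran from -0.11 ± 0.37 for Unc79 to 0.23 ± 0.38 for Zfp609 (limma, adjusted p = 1.00 for each). For Tulp4 it was 0.13 ± 0.24 and for Elf2 0.05 ± 0.27. Rtn4, the gene higher on polysomes, had 0.09 ± 0.22, with a 95% interval from -0.38 to 0.57.

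A list of 17 other genes known to host brain circular RNAs was described in the same way. It was chosen with earlier results of these data known, so its counts are no independent check on those of the 10 genes. Over both genotypes 12 of 17 were lower on polysomes and none was higher, with a median log2 difference of -0.73. Among all genes 18.4% were lower and 17.1% higher. In WT 8 and in TG 10 of the 17 were lower and none was higher. Among all genes 8.59% and 9.86% were lower and 5.36% and 8.19% higher. With the replicate block 15 were lower and 1 was higher over both genotypes, against 24.6% and 24.8% of all genes. In WT 11 were then lower and none was higher, against 15.9% and 13.9%, and in TG 11 were lower and 1 was higher, against 16.6% and 16.7%. With the trend on length removed, 10 were lower and 1 was higher over both genotypes, against 14.8% and 15.4% of all genes, and the median was -0.46. The largest fall was that of Rmst, a long noncoding RNA, which had 631 ± 91.2 normalized counts in WT input and 84.0 ± 22.5 in WT polysome (mean ± SD, n = 3), with a log2 difference of -2.83 ± 0.16 and an adjusted p of 2.69e-07 (limma). Among genes named after their values were seen, Kat6b, a histone acetyltransferase, was at -2.47 ± 0.16 and Cdyl, a chromodomain protein, at -2.26 ± 0.16. The presynaptic scaffold genes Rims1 and Rims2 were at -0.90 ± 0.12 and -0.73 ± 0.10, and Homer1, a postsynaptic scaffold gene, was at 0.35 ± 0.15 and did not pass (adjusted p = 0.0938). With the block Homer1 passed, at 0.35 ± 0.08 (adjusted p = 0.00546, limma). No gene of the list passed between genotypes in either fraction.

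Of 26 genes whose proteins make, bind or degrade circular RNAs, 10 were lower on polysomes and 1 was higher over both genotypes, with a median of -0.30, against 18.4% lower and 17.1% higher among all genes. This list too was chosen with earlier results of these data known. In WT 3 and in TG 4 of the 26 were lower and none was higher. Among all genes 8.59% and 9.86% were lower and 5.36% and 8.19% higher. With the replicate block 14 were lower and 3 higher over both genotypes, against 24.6% and 24.8% of all genes. In WT 8 were then lower and 2 higher, against 15.9% and 13.9%, and in TG 10 and 2, against 16.6% and 16.7%. The largest fall was in Ythdc1, a nuclear reader of N6-methyladenosine, with 2942 ± 534 normalized counts in WT input and 1288 ± 201 in WT polysome. Its log2 difference was -1.22 ± 0.17 with an adjusted p of 0.000312 (limma). Eif4g2, an initiation factor used in cap-independent translation, rose from 20079 ± 1713 in WT input to 27809 ± 2440.2 in WT polysome, a log2 difference of 0.44 ± 0.10 with an adjusted p of 0.00566 (limma). With the trend on length removed, 6 of the 26 were lower and 4 were higher over both genotypes, against 14.8% and 15.4% of all genes. Mbnl1, a splicing factor that binds its own circular RNA in flies, is in both lists and did not pass (-0.27 ± 0.13, adjusted p = 0.121), but passed with the block (-0.27 ± 0.09, adjusted p = 0.0346, limma).

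For 9 of the 10 genes, all but Slc8a1, the gene with the most similar profile is given, taken among 13162 others whose log2 level averaged 5 or more, by Pearson's r over the 12 libraries. These points share their fraction and replicate number, so the values describe likeness only. The nearest was Atad2b to Tulp4 (r = 0.991), Rbm4 to Elf2 (r = 0.988), Mettl6 to Zfp609 (r = 0.963) and Ankef1 to Hipk3 (r = 0.961). Slc35a1 was nearest to Rtn4 (r = 0.982), Dach1 to Anks1b (r = 0.979), Cdr2 to Klhl2 (r = 0.962), Cntln to Unc79 (r = 0.988) and Nsd2 to Gigyf2 (r = 0.982). Nearest to the mean profile of the 10 genes were Stag1 (r = 0.994), Glcci1 (r = 0.990), Crebrf (r = 0.989), Zfat (r = 0.988) and Phf21a (r = 0.987). Phf21a, a histone-binding protein, is also on the list of other host genes, with 2855 ± 671 normalized counts in WT input and 660 ± 69.4 in WT polysome.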

How the data were processed

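RNA of 12 libraries was analysed. The signal deposited by the authors is an estimated count per gene after normalization. Per the submitters' processing notes, they used GRCm38 with Salmon 1.1.0, DESeq2 1.26.0 and R 3.6.2. The sources used here do not give the annotation, use of strand or scaling model. Of the values worth up to 20 reads, 32.7% to 45.9% were within 0.1 of a whole read, so no test of counts was run. Depth was estimated from the step whose multiples best fitted the low values. It is approximate, since most of these values were not near a whole read. No column of another series was present (0). Of 21492 identifiers, 21465 matched GENCODE M21, and Ddx39a was matched through a RefSeq synonym.

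Each comparison was fitted over all genes with limma 3.58.1 (R 4.3.3) on log2(value + 1) with a variance trend, for genes with at least 3 fitted libraries at 10 or more. Fold changes of low genes are understated on this scale. P-values are two-sided, with Benjamini-Hochberg adjustment, and 0.05 was the threshold. Genotype was fitted within a fraction, and polysome against input and the interaction in 1 fit of 12 libraries. The fits were tested on simulated data. Deviations from group means of the libraries that share a number correlated at 0.24 to 0.55 in 18 pairs and at -0.41 to -0.00088 in 36 pairs of different numbers, so a replicate block was taken as pairing the samples; the pairing comes from the shared numbers and these values. Block values stand beside a result where they change its call.

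The 10 genes and the lists were chosen with earlier results of these data known. Named were the 10 genes, the largest called rise and fall of both lists, and the nearest profiles without predicted or pseudogene symbols. Kat6b, Cdyl, Rims1, Rims2, Homer1 and Mbnl1 were named from the lists outside this rule, some of them after their values were seen. Alternatives were scaling by a trimmed mean of M values (TMM), other filters, pseudocounts 0.5 and 5, no variance trend, other libraries in the fit, the block, the trend on exonic length removed, and each library left out. Block fits without every library of 1 number were added after seeing the data. Sequences are from GENCODE M21 transcripts. The exon ends of Zfp609 and the profile nearest to Slc8a1 are not reported here.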

Additional observations from a re-analysis of the deposited data

How the results depend on the processing

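The lowest value of any of the 10 genes was 498 normalized counts. Which of depth and the spread between libraries limits the precision was not compared. The number of genes passing in polysome against input depended on the fit. Without a block 2367 genes passed in WT and 3062 in TG, and with the replicate block 5052 and 5638. With the block and all libraries of 1 number left out, WT had 375 without number 2 and 3669 without number 3 (3 of the 10 genes without number 2), and TG had 1321 without number 2. With the trend on exonic length removed WT had 1459, and TG had 1700 when only its own libraries were fitted. Leaving out 1 library gave 648 (without WT input 3) to 2566 in WT and 1205 (without TG polysome 3) to 3263 in TG; in WT the count also fell to 1375 without WT input 2, 1288 without WT polysome 2 and 812 without WT polysome 3, and in TG to 1552, 1340 and 1358 without TG input 2, TG input 3 and TG polysome 1. Over both genotypes the count was 4975 to 6078, and 8388 with the block. When 1 library was left out, 4 to 6 of the 10 genes passed in WT and in TG and 7 or 8 over both genotypes. In genotype, where no gene passed, 0 to 1 gene passed in input, 0 to 1 in polysome and 0 to 2 in the interaction when 1 library was left out. With the block 1 gene passed in polysome; with the block and number 1, 2 or 3 left out, input had 1, 6 and 2, polysome 3, 0 and 89, and the interaction 2 without number 2 and 1 without number 3. None of the 10 genes was among them.

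Small differences changed sign. With the length trend removed, TG minus WT in input became -0.014 for Hipk3 and -0.016 for Gigyf2, polysome minus input of Klhl2 became 0.25 in WT, 0.26 in TG and 0.26 over both, and its interaction 0.0036. With TMM scaling TG minus WT of Elf2 in polysome became -0.0042, and polysome minus input of Anks1b in TG -0.0065. The cause was not tested. When 1 library was left out, TG minus WT in input ranged from -0.17 to 0.073 for Tulp4, -0.20 to 0.12 for Elf2, -0.37 to 0.20 for Zfp609, -0.038 to 0.064 for Hipk3, -0.53 to 0.16 for Slc8a1, -0.10 to 0.021 for Rtn4, -0.10 to 0.29 for Anks1b, -0.075 to 0.26 for Klhl2, -0.24 to 0.31 for Unc79 and -0.18 to 0.14 for Gigyf2. In polysome it ranged from -0.026 to 0.13 for Tulp4, -0.064 to 0.11 for Elf2, -0.052 to 0.23 for Zfp609, -0.095 to 0.015 for Hipk3, -0.41 to 0.23 for Slc8a1, -0.23 to 0.32 for Anks1b, -0.056 to 0.24 for Klhl2, -0.18 to 0.025 for Unc79 and -0.037 to 0.17 for Gigyf2. The interaction ranged from -0.11 to 0.21 for Elf2, -0.12 to 0.45 for Zfp609, -0.10 to 0.013 for Hipk3, -0.26 to 0.43 for Slc8a1, -0.33 to 0.23 for Anks1b, -0.16 to 0.17 for Klhl2, -0.36 to 0.18 for Unc79 and -0.080 to 0.23 for Gigyf2. Polysome minus input ranged for Anks1b from -0.20 to 0.24 in WT, -0.29 to 0.27 in TG and -0.13 to 0.15 over both, and for Klhl2 from -0.16 to 0.091, -0.18 to 0.16 and -0.098 to 0.069. A lone library is then assumed to vary like the others. Tulp4, Elf2, Unc79 and Gigyf2 passed in WT, in TG and over both genotypes in all 12 fits that left out 1 library, and Zfp609, Hipk3 and Rtn4 did so over both genotypes.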
